A study of Sus scrofa domesticus with 4 samples.

Results

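BTG1, BTG2 and GADD45A are growth arrest genes, and their RNA was followed in slices of pig endometrium kept in culture, untreated or with orexin A (OXA), a neuropeptide hormone best known from the control of appetite and wakefulness. The genes were taken by symbol, through the RefSeq accession that each array probe carries, which gave 7 of the 43603 probes on the array, 4 for BTG1 (NM_001099936), 2 for BTG2 (NM_001097505) and 1 for GADD45A (NM_001044599). The genes are 3 of 3029 that can be named on the array, and all 7 probes were among the 26927 bright enough to be tested. The genes were chosen with their OXA values on these arrays known, so those values are described below and carry no test.

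The tissue came from 4 crossbred gilts (Large White x Polish Landrace) aged 7 to 8 months, on days 15 to 16 of gestation, when the pig conceptus attaches to the uterine lining. Slices from the middle of the uterine horns were preincubated for 2 h in culture medium and then cultured for 24 h. The treated group had OXA in the medium, at 10 nM per the sample labels and at 10 µM per the design text of the series, and the control group had no treatment. Each of 4 two-colour arrays carried 1 OXA RNA and 1 control RNA, and the labels do not say whether both RNAs of an array were from 1 gilt. The explants are whole tissue with cultures in duplicate, so less RNA per cell and fewer cells of a type cannot be told apart in these values. The spread below is that between arrays, which holds animal, tissue piece and handling together.

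By the labels of the single samples, arrays 1 and 3 had OXA in the dye Cy5 and arrays 2 and 4 had it in Cy3. The labelling protocol instead names Cy5 for OXA throughout. Array 1 came from a separate slide, with a scan 71 days later than the others. Its Cy3 channel had 31.7% of probes well above background, against 52.1% to 56.7% on the other arrays, while Cy5 had 62.3% to 74.5%. Saturated spots numbered 0, and precision is limited by the number of arrays. Of the marker genes, 5 of 5 measured epithelial genes (among them EPCAM, CDH1 and KRT8) were well above background in all 8 readings. So were 3 of 3 measured genes of stromal fibroblasts (COL1A2, DCN and LUM). Measured means having a tested probe, out of 13 epithelial and 10 stromal genes listed. The stromal marker THY1 had a probe on the array but none that was tested. Endothelial and smooth muscle markers, 4 measured of each, were also well above background in all readings.

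BTG1 and BTG2 are sister proteins of the antiproliferative BTG/TOB family. They have no known enzymatic activity and act as adaptors, bringing the CCR4-NOT deadenylase to messenger RNAs and so hastening the loss of poly(A) tails. BTG1 is abundant in resting cells, and its transcription is driven by FOXO factors. BTG2 is an immediate early gene, induced by growth factors and by stress. GADD45A belongs to a different family, of small acidic stress sensors. It binds PCNA, the CDK1 and cyclin B complex and the kinase MAP3K4, and its RNA is induced by DNA damage, amino acid shortage and other stress.

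BTG1 was lower with OXA on every array in its 2 brightest probes. Ratios are log2 of OXA over control after loess normalization, with n = 4 arrays throughout. The brightest probe (A_72_P035836) was -0.42 on array 1, -0.49 on array 2, -0.44 on array 3 and -0.48 on array 4. These 4 values lie within 0.07 of each other. The arrays with OXA in Cy5 (mean -0.43) were both slightly above those with OXA in Cy3 (mean -0.48). Their mean was -0.45 ± 0.03 (SD, n = 4), a fold of 0.730. Only 5.44% of tested probes had an SD that small or smaller, and Agilent's own error for a single log ratio of this probe was 0.21 on each array. The second probe (A_72_P764290) was as even, at -0.36, -0.33, -0.40 and -0.35 on arrays 1 to 4, with a mean of -0.36 ± 0.03 (SD, n = 4).

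The 2 dimmer BTG1 probes were less even. Probe A_72_P747282 was -0.53, -0.12, 0.07 and -0.46 on arrays 1 to 4, with a mean of -0.26 ± 0.28 (SD, n = 4). Probe A_72_P733718 was -0.59, -0.29, 0.06 and -0.17, with a mean of -0.25 ± 0.27 (SD, n = 4). In both, array 1 was the lowest and array 3 was just above 0, where the brighter probes read -0.44 and -0.40. The 4 probes thus spanned 0.22 on array 1 and 0.50 on array 3. Without array 1 the means of these dimmer probes were -0.17 and -0.13. The 4 BTG1 probes carry the same accession, so they are readings of 1 gene and not replicates. Over all 4 the gene mean was -0.33.

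BTG2 was lower with OXA on 3 of 4 arrays and higher on array 4. The brighter probe (A_72_P428459) was -0.87 on array 1, -0.08 on array 2, -1.09 on array 3 and 0.44 on array 4. The arrays with OXA in Cy5 were thus well below 0, and those with OXA in Cy3 were near 0 or above it, with no overlap. The mean was -0.40 ± 0.71 (SD, n = 4), a fold of 0.758, so the spread between arrays was larger than the mean. It was -0.98 where OXA was in Cy5 and 0.18 where it was in Cy3. The other probe (A_72_P232792) had the same order of arrays by dye at smaller size, with -0.64, -0.23, -0.70 and 0.20 and a mean of -0.34 ± 0.42 (SD, n = 4). The BTG2 probes differed by 0.15 to 0.39 on an array, less than the arrays differed from each other. The mean of the brighter probe was -0.24 without array 1, -0.17 without array 3 and -0.68 without array 4.

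GADD45A, with its single probe (A_72_P146986), was low on array 1 above all. It read -1.39 on array 1, -0.23 on array 2, -0.42 on array 3 and 0.05 on array 4. Arrays 1 and 3 were again below arrays 2 and 4, with means of -0.91 and -0.09. The mean was -0.50 ± 0.63 (SD, n = 4), a fold of 0.709. Leaving out array 1, and with it that slide, gave -0.20. No second probe was there to set beside it.

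**Figure D1:**
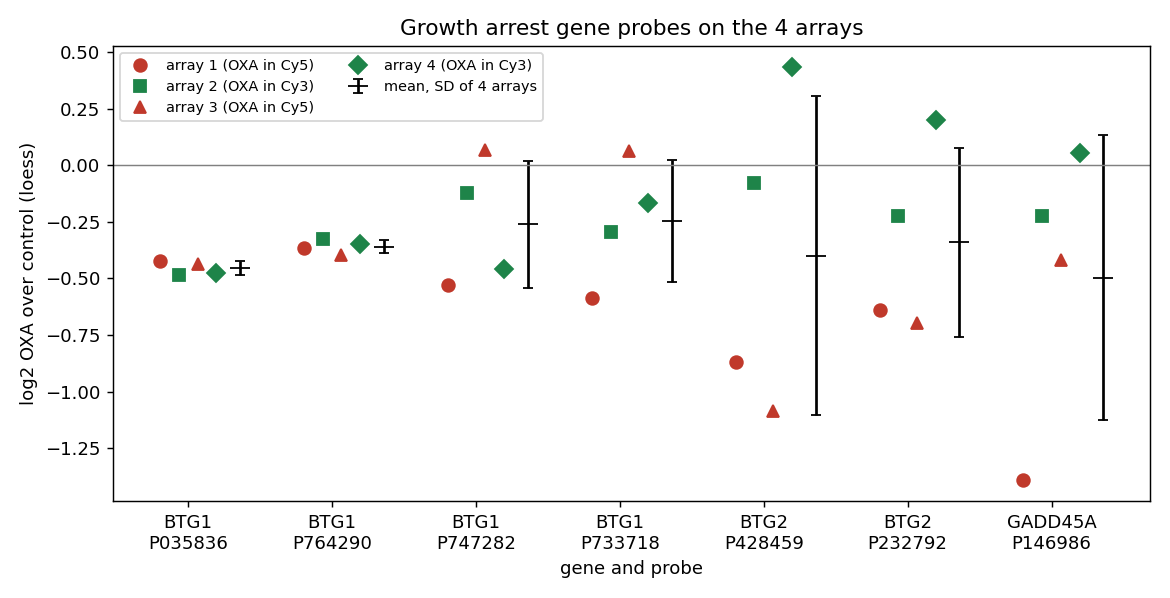
Log2 OXA over control after loess (vertical axis) for the 7 probes of BTG1, BTG2 and GADD45A, with 1 point per array coloured by the dye that carried OXA; the black bars are the mean and SD of 4 arrays. The 2 brightest BTG1 probes sit between -0.49 and -0.33 on all arrays, while BTG2 runs from -1.09 to 0.44 and GADD45A from -1.39 to 0.05.

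Across the 7 probes the means ran from -0.50 to -0.25, and 7 of 7 were below 0, as were 43% of all tested probes. Values below 0 on 4 of 4 arrays were found for 2 of 7 probes, both of BTG1, against 4.26% of all tested probes. Since the genes were chosen on this contrast, nothing is read from these counts. On array 1 the share of tested probes with a lower value was 11.2% for the brightest BTG1 probe, 2.15% for BTG2 and 0.349% for GADD45A. On array 3 it was 1.03%, 0.10% and 1.15%. On array 4 BTG1 was still among the lowest, with 1.46% of probes below it, but BTG2 had 98.8% and GADD45A 89.2% below it. With loess the brightest BTG1 probe was thus low within each array, and BTG2 and GADD45A changed places. The 2 dimmer BTG1 probes were not low on array 3, where 76.9% and 76.5% of tested probes lay below them. With each array only centred on its median, the share below the brightest BTG1 probe was 61.5% on array 1 and 85.4% on array 3. With Agilent's processed log ratio it was 18.8%, 29.9%, 14.1% and 8.90% on arrays 1 to 4. Nothing is read from these shares either.

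The levels in each tissue show where the arrays differed. They are normalized log2 intensities, scaled across arrays by Aquantile, and are not compared between probes. For BTG1 (A_72_P035836) the control level was 14.61, 14.82, 14.91 and 14.80 on arrays 1 to 4, and the OXA level was 14.19, 14.33, 14.47 and 14.32. In this probe the highest OXA level lay below the lowest control level, so the groups did not overlap, nor did they in A_72_P764290. In the dimmer BTG1 probes they overlapped. OXA reached 13.12 and controls began at 12.91 in A_72_P747282, and these values were 11.69 and 11.58 in A_72_P733718. The share of all tested probes without overlap was not counted, so nothing is read from this. For BTG2 (A_72_P428459) the control level was 15.69, 13.84, 15.39 and 14.22, and the OXA level was 14.81, 13.76, 14.30 and 14.65. Control tissue was high on arrays 1 and 3, where control RNA was in Cy3, and OXA tissue lay within the range of the controls except for array 2, just below it. Dye and tissue of origin cannot be told apart in this split of the control levels, since each array is another pair of RNAs. For GADD45A the control level was 14.82, 12.36, 13.38 and 14.23, and the OXA level was 13.43, 12.13, 12.97 and 14.29. The controls alone spanned 2.46, more than the difference from OXA on any array, and the groups overlapped.

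**Figure D2:**
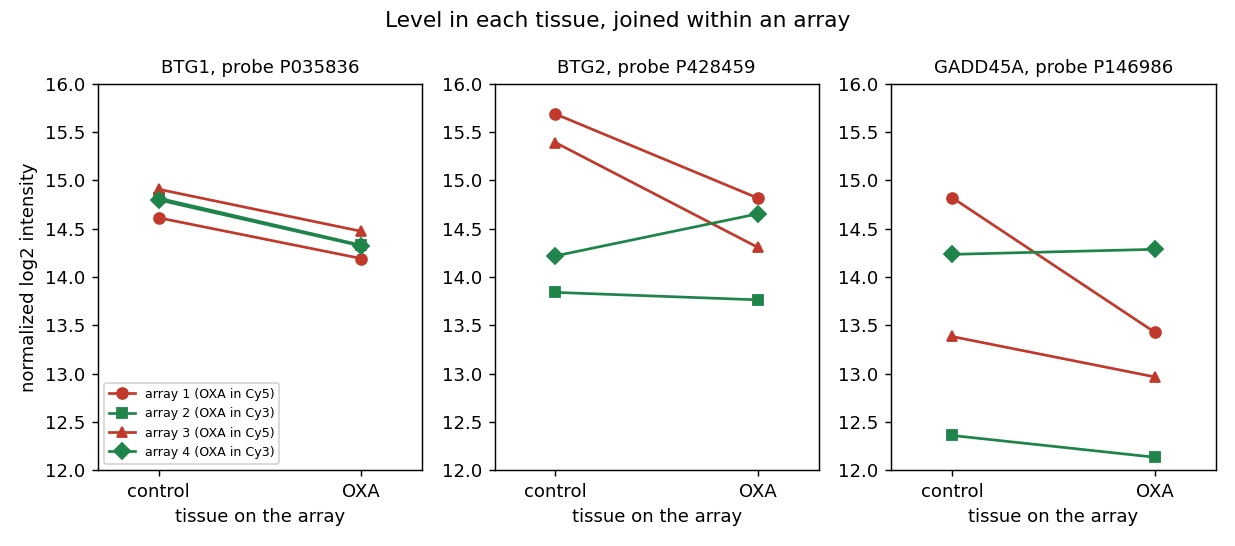
Normalized log2 intensity (vertical axis) of 1 probe each of BTG1, BTG2 and GADD45A in control and OXA tissue, joined within an array and coloured by the dye that carried OXA. The 4 BTG1 lines slope down nearly in parallel, while BTG2 and GADD45A start from control levels spread over 13.84 to 15.69 and 12.36 to 14.82 and come closer on the OXA side.

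All these probes were bright, which matters for the scaling. Each was well above background in 8 of 8 readings, and the lowest signal in any channel was 16.1 times the local background, for BTG1 probe A_72_P733718 on array 1. At such brightness the Cy5 over Cy3 ratio departed from the array median, and loess took that departure out. For the brightest BTG1 probe loess moved the value by -1.23, 0.98, -2.29 and 1.15 on arrays 1 to 4, each more than what was left. With each array only centred on its median the same probe was 0.81, -1.47, 1.86 and -1.62, above 0 where OXA was in Cy5 and below 0 where it was in Cy3.

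Averaged over the dye orientations, the means under median centring were nearer to 0 than with loess. BTG1 was -0.11, BTG2 0.00 and GADD45A -0.16, and 3 of 7 probes were below 0. The dimmer BTG1 probes were 0.07 and 0.10. The median over all tested probes was 0.14 under that scaling against 0.02 with loess, and 7 of 7 probes were below it. Among all tested probes 3.09% had a lower mean than BTG1, 23.9% than BTG2 and 0.888% than GADD45A. With loess those shares were 0.676%, 0.999% and 0.483%. The size of the difference, and for BTG2 and the dimmer BTG1 probes whether it was below 0, thus depended on loess.

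Scalings that share an intensity-dependent dye correction gave much the same means, but not the same evenness between arrays. With no background correction the means were -0.46, -0.40 and -0.59 for BTG1, BTG2 and GADD45A. With Agilent's processed log ratio they were -0.45, -0.38 and -0.60, and the authors' deposited value table held the same values for all 7 probes. The brightest BTG1 probe was less even in Agilent's ratio, at -0.43, -0.38, -0.38 and -0.62 on arrays 1 to 4 (SD 0.11). Among all tested probes 5.92% had a lower mean than BTG1 in that ratio, 8.32% than BTG2 and 2.81% than GADD45A. In that ratio 5 of 7 probes were below 0 on 4 of 4 arrays, including all 4 of BTG1. The matching share of all tested probes was not counted, so nothing is read from this count. The dimmer BTG1 probes, 0.07 and 0.06 on array 3 with normexp and loess, were -0.26 and -0.22 there in Agilent's ratio. GADD45A was below 0 on every array in that ratio, from -1.26 to -0.06.

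**Figure D3:**
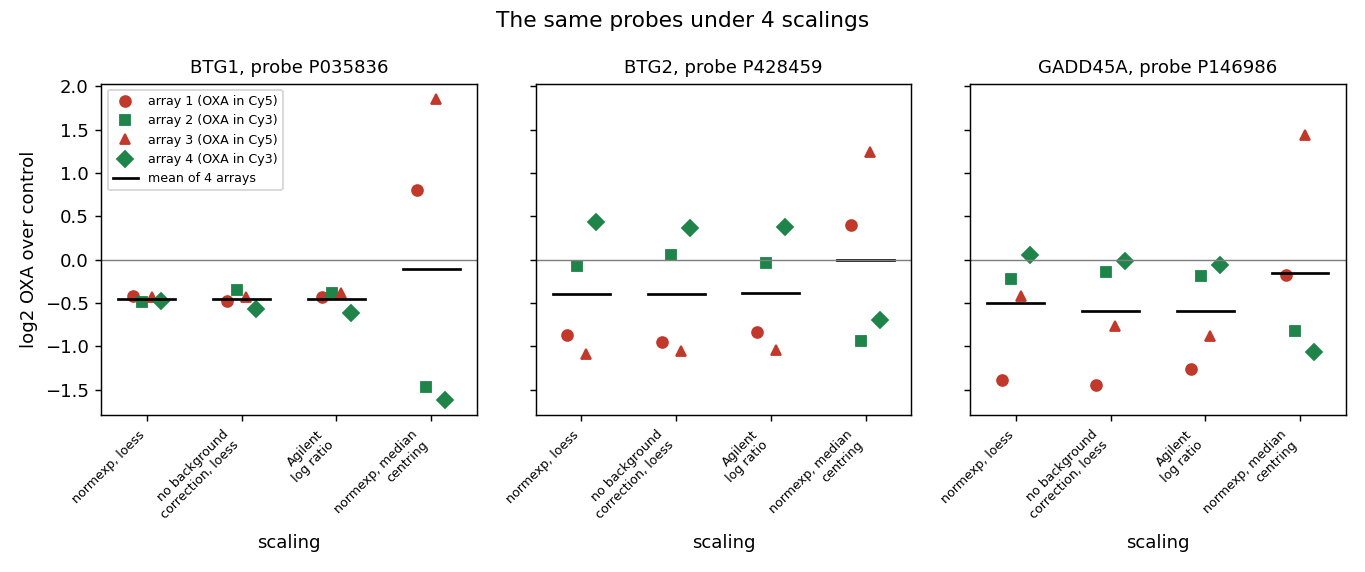
Log2 OXA over control (vertical axis) of the brightest probe of each gene under 4 scalings, with 1 point per array and a line at the mean of 4 arrays. The BTG1 means agree closely under the 3 scalings with an intensity-dependent dye correction, while median centring parts the arrays by dye, to 1.86 and -1.62.

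The difference in BTG1 rests on the reading of the dyes. Under the labelling protocol's wording, with OXA in Cy5 on all arrays, the brightest BTG1 probe was 0.03, since its ratios point to opposite dyes on the swapped arrays. The other BTG1 probes were -0.02 (A_72_P764290), 0.03 (A_72_P747282) and -0.02 (A_72_P733718), so little difference was left in either direction. BTG2 was -0.58 and GADD45A -0.41 under that wording. With the swap balanced, the dye coefficient, the part of the Cy5 over Cy3 ratio common to all arrays, is the same quantity as the value under that wording. It was therefore again 0.03 for BTG1, -0.58 for BTG2 and -0.41 for GADD45A. A coefficient at least as large in size was found in 79.0% of tested probes for BTG1, 0.698% for BTG2 and 2.15% for GADD45A.

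Likeness was measured as the root mean square difference of the 4 array values between the brightest probes of 2407 named genes. BTG1 lay 0.57 from GADD45A and 0.64 from BTG2, which ranked 1758 and 2005 of 2406 genes by nearness to it. Counted from the other side, BTG1 ranked 398 by nearness to GADD45A and 344 by nearness to BTG2. Nearest to BTG1 were APOA1, an apolipoprotein of high-density lipoprotein, at 0.19, GNAS, the stimulatory G protein alpha subunit, at 0.20, and CYBA, a membrane subunit of NADPH oxidase, at 0.21. Their means were -0.27, -0.27 and -0.26, each smaller in size than that of BTG1.

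BTG2 and GADD45A were nearer to each other, at 0.47, where GADD45A ranked 32 of 2406 by nearness to BTG2 and BTG2 ranked 181 by nearness to GADD45A. The nearest gene to BTG2 was DNAJB1, a heat shock co-chaperone, at 0.17, with -0.90, -0.37, -0.95 and 0.31 on arrays 1 to 4. SAT1, a polyamine acetyltransferase, was at 0.21 and CANX, a chaperone of the endoplasmic reticulum, at 0.24. Nearest to GADD45A were SLC7A2, a transporter of cationic amino acids, at 0.14, F3, the clotting initiator tissue factor, at 0.19, and AGPAT5, an acyltransferase of phospholipid synthesis, at 0.19. SLC7A2 was -1.54, -0.34, -0.22 and -0.01, low on array 1 like GADD45A. The ranking is a description of these 4 arrays.

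Relatives of the genes were thinly covered. In the BTG/TOB family 2 of 4 listed genes were measured. TOB1, an antiproliferative adaptor of the same family, was -0.15, -0.43, 0.21 and -0.37 on arrays 1 to 4, with a fitted value of -0.19 (SE 0.09). BTG3 was -0.42, 0.09, 0.26 and 0.05, with a fitted value of -0.01 (SE 0.13). In the GADD family 1 of 5 was measured. DDIT3, the stress-induced transcription factor also known as CHOP, was -1.24 on array 1 and -0.15, -0.02 and 0.02 on arrays 2 to 4 (fitted value -0.35, SE 0.23). No gene of the CCR4-NOT deadenylase or its partners was measured here.

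Partners and upstream genes gave no call. Over all the lists, 28 of 112 genes were measured besides BTG1, BTG2 and GADD45A, 24 of them below 0. The median was -0.13, against -0.02 for all 2407 named genes tested, of which 57.5% were below 0. With median centring the median of the 28 turned to 0.11, against 0.14 for all tested probes, a wider set than the named genes. None of the 28 passed limma's moderated test (adjusted p of 0.05 over all probes), and 2 had an unadjusted p under 0.05, both below 0. Among the 2407 named genes, 30 above 0 and 50 below 0 had an unadjusted p under 0.05 in that test. Over the whole array 0 of 26927 probes passed (0% called), and 1.86% were under 0.05 unadjusted. Asking for a 1.2-fold difference as well left 349 probes (1.3% of those tested), 51.9% of them lower. Under median centring this count was 4297 with 0.0931% lower, and with Agilent's log ratio 1829 with 31.1% lower.

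By role, the cyclin-dependent kinase inhibitors CDKN1B and CDKN2B were -0.10 (SE 0.06) and -0.11 (SE 0.09), and the third measured, CDKN3, was -0.02. Among GADD45 partners CDK1, CCNB1 and APEX1 were -0.01, 0.04 and 0.10. FOXO3, a driver of BTG1 transcription, was -0.18 (SE 0.14). For FOXO3 array 1 alone was low, at -0.73, and arrays 2 to 4 were -0.01 to 0.01. The quiescence factors KLF4 and KLF6 were -0.61 (SE 0.29) and -0.33 (SE 0.19), while TXNIP, an inhibitor of thioredoxin, was 0.31 (SE 0.21). The 7 tested probes of TXNIP had fitted values from -0.11 to 0.31. KLF4 was lowest on array 1 (-1.58) and highest on array 3 (-0.02), and KLF6 lowest on array 3 (-1.49) and highest on array 4 (0.88).

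Genes of cell proliferation stood near 0. Of 32 listed genes 7 were measured, 4 of them well above background in all 8 readings. The median was -0.04, and 7 of 7 were below 0, some only just, as were 57.5% of all named genes tested. The lowest were CCNB2, a mitotic cyclin, at -0.24 (SE 0.19) and BIRC5, a mitotic inhibitor of apoptosis, at -0.20 (SE 0.14). The mitotic kinase AURKB was -0.14 (SE 0.09), and its other tested probe was 0.02. For CCNB2 array 1 alone was low, at -1.02, and the other arrays were 0.00 to 0.04. The cyclin CCND2 and the kinase CDK4 were 0.00 and -0.04. No gene of this list had an unadjusted p under 0.05.

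**Figure D4:**
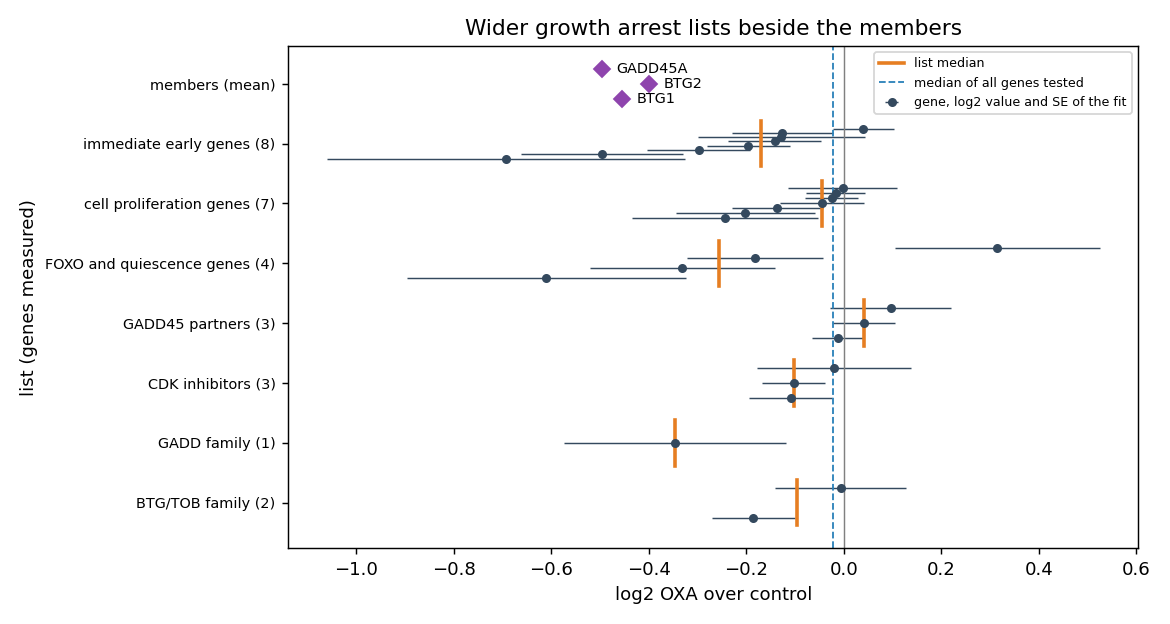
Log2 OXA over control (horizontal axis) of the measured genes in 7 lists, each point a gene with the SE of the limma fit, with the list median in orange and the median of all named genes tested as a dashed line at -0.02. Diamonds show the means of BTG1, BTG2 and GADD45A, at -0.45, -0.40 and -0.50; proliferation genes and GADD45 partners lie near 0.

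BTG2 is also an immediate early gene, and 8 others of that kind were measured. Of these 7 were below 0, with a median of -0.17, beside 57.5% of all named genes tested below 0. JUN, a subunit of AP-1, was -0.53, 0.11, -1.37 and -0.19 on arrays 1 to 4 (fitted value -0.50, SE 0.17; unadjusted p = 0.0426, adjusted p = 0.763 in limma). KLF2, a zinc finger factor, was -0.35, -0.60, 0.00 and -0.24 (fitted value -0.30, SE 0.11; unadjusted p = 0.0495, adjusted p = 0.763 in limma). The 2 tested probes of KLF2 differed, with fitted values of -0.30 and 0.007. JUN shared the low value of array 3 with BTG2, and KLF2 did not. FOS was lowest on array 1, at -0.48, and lay between -0.07 and 0.03 elsewhere.

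Markers of tissue composition also differed between arrays. On array 1, where GADD45A was lowest, the 3 stromal fibroblast genes had a median of 1.44, against 0.02 to 0.26 on arrays 2 to 4. The 5 measured epithelial genes of 13 listed had medians of -1.04, -0.36, -0.20 and 0.64 on arrays 1 to 4. These medians were lowest on array 1, where GADD45A was lowest, and highest on array 4, where BTG2 and GADD45A were highest. By gene, KRT8 was lowest on array 2 (-0.33) and the other measured epithelial genes on array 1. BTG2 was lowest on array 3 (-1.09), where the epithelial median was -0.20 and the stromal median 0.08. The brightest BTG1 probe was -0.42 on array 1 and -0.48 on array 4, while the dimmer BTG1 probes were lowest on array 1 (-0.53 and -0.59). The medians of the 9 myeloid markers split by dye, with 0.37 and 0.30 on arrays 1 and 3 and -0.56 on both other arrays, the opposite way to BTG2. Not every myeloid gene did so. CD14 was lower on array 1 (-0.66) than on array 4 (-0.13), and LYZ lower on array 3 (-0.07) than on array 2 (0.00). Medians on arrays 1 to 4 were 0.36, -0.57, -0.21 and -0.45 for 4 endothelial genes, and 0.10, -0.84, 0.37 and -0.16 for 4 smooth muscle genes. The 8 T and NK lymphocyte genes had medians of 0.11, -0.22, 0.19 and -0.17, and the 7 trophoblast genes 0.24, -0.19, 0.01 and 0.03. Of these, 1 of the 8 lymphocyte genes and 4 of the 7 trophoblast genes were well above background in all 8 readings. The endothelial, smooth muscle and lymphocyte medians were also higher on arrays 1 and 3 than on arrays 2 and 4. The part of tissue composition in the values of BTG1, BTG2 and GADD45A was not tested.

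**Figure D5:**
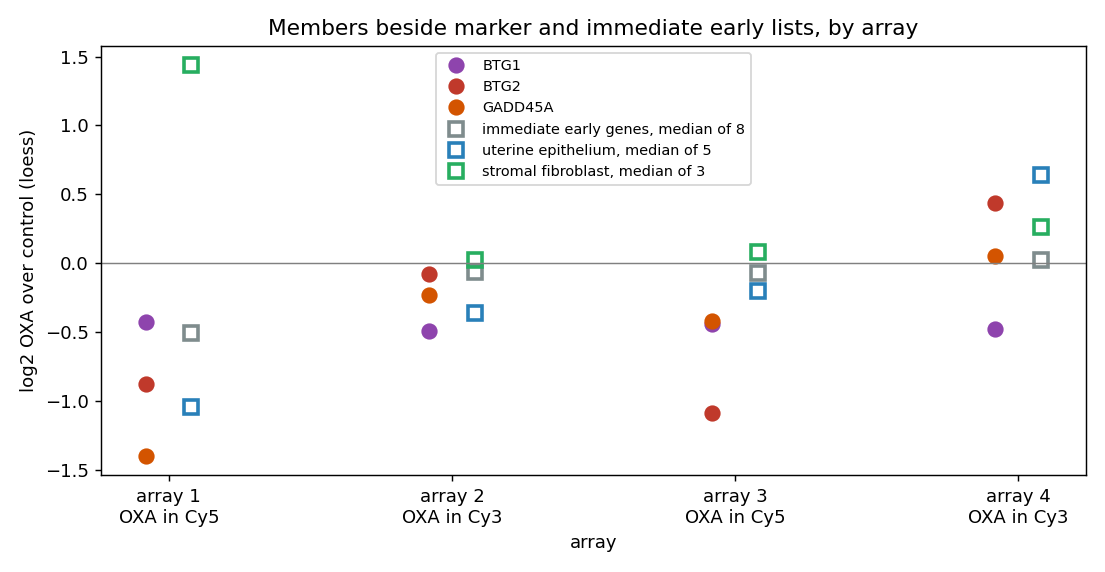
Log2 OXA over control after loess (vertical axis) on each array for the brightest probes of BTG1, BTG2 and GADD45A (filled circles) and the medians of 3 gene lists (open squares). BTG1 stays between -0.49 and -0.42, while the epithelial median runs from -1.04 on array 1 to 0.64 on array 4 and the stromal median stands at 1.44 on array 1.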

How the data were processed

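Expression was measured on 4 two-colour Agilent arrays, each with 1 OXA and 1 control RNA. Per the file headers, the authors' scanner files were made with Agilent Feature Extraction 10.7.3.1. They hold the median intensity of each spot and background, processed intensity values and the log10 of Cy5 over Cy3. The authors' deposited value table holds log2 ratios, turned to OXA over control by the dyes of the single samples, with column medians of -0.17, 0.06, -0.06 and 0.09 and unknown centring. Over 43420 probes these columns correlated with the scanner's Cy5 over Cy3 ratio at 0.89, -0.97, 0.69 and -0.80 on arrays 1 to 4.

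Median intensities were corrected by normexp (offset 50) and normalized by loess, with control and outlier spots given no weight and left out. Probes well above background in at least 4 of 8 readings were kept. limma 3.58.1 (R 4.3.3) fitted an OXA and a dye coefficient, with eBayes and Benjamini-Hochberg adjustment over all kept probes (3.88 degrees of freedom after moderation). The fit was tested on simulated data. A gene is represented by its brightest kept probe. Of 7125 probes with a RefSeq accession 6700 were named from the table of assembly Sscrofa11.1. The headers name no build, so no coordinates are given, and probe, promoter and protein sequences were not used here, so the promoter motifs that had been planned were not searched.

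The genes and lists were chosen with earlier results of these data known. Besides all probes of BTG1, BTG2 and GADD45A, the text names the 3 genes nearest to each. One gene list is not reported here. From each of the others it names genes with an unadjusted p under 0.05, or else the 2 of lowest p, and every measured BTG/TOB and GADD gene. CDKN3, CDK1, FOXO3, TXNIP, CCNB2, CCND2, CDK4, FOS and the marker genes fall outside that rule and were named after their values were seen.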

Additional observations from a re-analysis of the deposited data

Results flagged for a closer look

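Of 56 sets of 4 array values checked, 3 had 1 array far from the other arrays by Dixon's criterion, and chance alone gives about 1 set in 20. Each was array 1, the array on the other slide. DDIT3 was -1.24 there. The median of the immediate early genes was -0.50 there, against -0.07 to 0.02 on the other arrays. The median of the stromal fibroblast genes was 1.44. No probe of BTG1, BTG2 or GADD45A was set apart in this way, in its ratio or in its levels.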

How the results depend on the processing

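BTG1, BTG2 and GADD45A stayed below 0 with no background correction, with Agilent's log ratio and with each array left out. The authors' table holds the same values as Agilent's ratio for these probes, so it is no further check. Either change of the brightness filter, or leaving out the dye coefficient, could not alter these means. The probes were bright in all readings, and the values are plain means of the arrays. Leaving out 1 array gave -0.47 to -0.44 for BTG1, -0.68 to -0.17 for BTG2 and -0.68 to -0.20 for GADD45A. Median centring gave -0.11 for BTG1, 0.0025 for BTG2 and 0.11 for the 28 genes of the wider lists. By probe it gave 0.072 for A_72_P747282 and 0.10 for A_72_P733718 of BTG1, and 0.0025 (A_72_P428459) and 0.033 (A_72_P232792) for those of BTG2. With OXA taken to be in Cy5 throughout, BTG1 was 0.026 and the wider lists 0.014. The other BTG1 probes were then 0.030 (A_72_P747282), -0.022 (A_72_P764290) and -0.015 (A_72_P733718). The mean over all BTG1 probes was -0.33. The wider lists, -0.13 at first, ran from -0.21 to -0.036 with 1 array left out, the latter without array 1. The count of probes with an unadjusted p under 0.05 and a fold of at least 1.2 was 349. It was 4297 with median centring, 1406 with no background correction, 1829 with Agilent's log ratio, 1824 with the authors' table and 679 with OXA taken as Cy5. With 1 array left out it ran from 285 to 3115 (without array 3; 2059 without array 4). At an adjusted p of 0.05 limma called 0 probes (500 at an unadjusted p under 0.05), also with an intensity trend and robust fitting, and 0 to 6 with 1 array left out, the 6 without array 4. The cause of these changes was not tested. No paired analysis was possible because both RNAs of an array are already compared within it and the replicate numbers pair nothing else. A fit of 2 coefficients to 4 arrays leaves few degrees of freedom, and no member probe was near its background, so the number of arrays and the dye correction set the limits.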
